A study of Mus musculus with 12 samples.

Results

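The genes of the opioid receptors and of 2 opioid peptide precursors were examined in the mouse hypothalamus: the mu receptor Oprm1, the kappa receptor Oprk1, the delta receptor Oprd1, the nociceptin receptor Oprl1, prodynorphin (Pdyn) and prepronociceptin (Pnoc). They were 6 of the 27308 gene symbols in the normalized data table and carried 15 of its 56605 probes, all taken by gene symbol and each described apart. Of these 15 probes, 10 were well above background on all 12 arrays, and 13 passed the filter on low signal, which kept a probe when some group had it well above background in each of its 3 mice. The group was chosen by the values of 1 dim probe of Oprm1, which was lower in both exercised groups than in sedentary wild-type mice. The values of that probe are therefore given below as a description. It stays in the fits and in the counts over all members, but no support is drawn from its p-values.

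The series set hypothalamus RNA of 12 male C57BL/6 mice on single-color Agilent arrays, 1 mouse on each array, to ask how gene expression differs after loss of Asmt, the enzyme of the last step of melatonin synthesis, and after swimming. Wild-type controls (WT) and Asmt-knockout controls (KO) did not swim, whereas the wild-type exercise group (swimming WT) and the knockout exercise group (KE) were trained by swimming without a load, with 3 mice in each of the 4 groups. Knockout mice were homozygous for the allele of a founder made with Cas9 and carrying a 20 bp deletion in Asmt, backcrossed for 3 generations, and the wild-type mice were their littermates. The paper states that C57BL/6J mice have low Asmt activity from birth, and it found no significant effect of the knockout on serum melatonin. All mice are labelled as 6-7 weeks old, which the methods give as the age when the swimming began. The deletion is a germline allele and not specific to the hypothalamus, and the RNA came from whole tissue, in which fewer cells of a type and less RNA per cell cannot be told apart.

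Opioid receptors are receptors of the cell surface that couple to inhibitory G proteins, lower cyclic AMP, open potassium channels and close calcium channels, and so quiet the neurons that carry them. Enkephalins and beta-endorphin act at the mu and delta receptors, dynorphins, which are cut from prodynorphin, act at the kappa receptor, and nociceptin, cut from prepronociceptin, acts at the nociceptin receptor. In the hypothalamus, dynorphin is made by vasopressin neurons, by orexin neurons and by kisspeptin neurons of the arcuate nucleus, and opioid signals there bear on feeding, reproduction, water balance and reward.

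The arrays lay on 2 slides. Slide 1 held the 3 WT arrays and KO replicates 1 and 2, whereas slide 2 held KO replicate 3 and all swimming WT and KE arrays. The first principal component took up 47.26% of the variance, and on it KO replicate 3 lay at 39.96, beside the swimming WT and KE arrays (19.29 to 34.64) and away from the other KO arrays (-43.62 and -43.28). The slide and the swimming cannot be told apart in swimming WT versus WT or KE versus WT except through the KO mice, so differences are also given from a fit with the slide as a block. In that fit the slide term rests on KO replicate 3 against KO replicates 1 and 2. It thus also carries differences between these single mice, and a value that moves under the block need not have moved with the slide. Of 20 genes that mark the hypothalamus, the brightest probes of 19 were well above background on all 12 arrays. Striatal markers varied between mice, with a summed signal of 73437 to 78979 in WT, 69880 to 73708 in KO, 73672 to 100669 in swimming WT and 69294 to 69793 in KE mice over 13 genes. Precision throughout is limited by the number of arrays.

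The 2 probes on which most of the Oprm1 result turns are both assigned by the array annotation to the transcript variant MOR-1U. Their sequences are shown because the probes lie side by side yet differ in kind. The dim probe (A_55_P2744858, minus strand, chr10:3309164-3309223 in build mm9) lies 772 bases before the bright probe (A_55_P2025443, minus strand, chr10:3308332-3308391) in the direction of transcription. The last 30 of the 60 bases of each probe follow, 5′ to 3′, with repeats of CA and AG in capitals.
MOR-1U, dim: tgttaaacatggcaatgtggcttctgtgga
MOR-1U, bright: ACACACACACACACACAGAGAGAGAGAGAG
The bright probe held an unbroken run of 27 bases of alternating C and A and a run of 14 bases of alternating A and G. The letters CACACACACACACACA, searched on both strands, were in 111 of 56605 probes (0.196%), and none of the other 14 probes of the opioid genes held them. Of these 111 probes, 110 (99.1%) were well above background on all 12 arrays, against 56.7% of all probes. The AG run was searched apart as AGAGAGAGAG, on both strands, and was in 0.159% of probes, among them the same bright probe. The annotation does not say whether the probes lie in an exon or a UTR, and no genome of build mm9 was used here.

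The dim MOR-1U probe of the mu receptor was the member that differed most between groups. Its normalized log2 signal was 4.04, 5.49 and 5.78 in the 3 WT mice, 1.90, 4.48 and 1.82 in KO, 3.19, 1.99 and 3.50 in swimming WT, and 3.96, 1.87 and 3.50 in KE mice. The signal stood well above background in all 3 WT mice, in KO replicate 2 alone among KO mice, and in no swimming WT or KE mouse. All swimming WT and all KE arrays thus lay below the lowest WT array, while KO replicate 2 lay within the WT range.

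The group means of this probe were 5.11 ± 0.93 (SD, n = 3) in WT, 2.74 ± 1.51 in KO, 2.89 ± 0.80 in swimming WT and 3.11 ± 1.10 in KE mice. The fitted log2 difference from WT was -2.37 in KO, -2.21 in swimming WT and -2.00 in KE mice, each with a standard error of 0.82. The probe passed the filter on low signal only through the WT mice. Since no swimming WT or KE array was well above background, their folds were also taken with each dim array raised, if needed. It was raised to the faintest signal that counted as well above background on it. In the deposited values, the WT mean then exceeded that of swimming WT mice by 2.36-fold and that of KE mice by 1.90-fold. These values carry no error of the WT mean, and the differences were smaller under the slide block and normexp, as given below. KO, swimming WT and KE means lay within 0.38 of each other on the log2 scale, less than the spread within any of these groups. The 3 comparisons with WT share the WT arrays.

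The size of this difference moved with single arrays, with the slide block and with the background correction. When 1 array was left out, it ran from -3.24 (without KO replicate 2) to -1.92 (without KO replicate 3) in KO versus WT. It ran from -2.74 (without WT replicate 1) to -1.76 (without swimming WT replicate 2) in swimming WT versus WT, and from -2.53 (without WT replicate 1) to -1.37 (without KE replicate 2) in KE versus WT. With the slide as a block, the differences were -1.92 in KO, -0.85 in swimming WT and -0.63 in KE mice, with standard errors of 0.91, 1.46 and 1.46. For KO versus WT the block gives the same estimate as leaving out KO replicate 3. The KO arrays behind the slide term were at 1.90 and 4.48 on slide 1 and at 1.82 on slide 2. When the background was corrected by normexp and not by the scanner software, they were -0.43, -0.46 and -0.42.

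**Figure D1:**
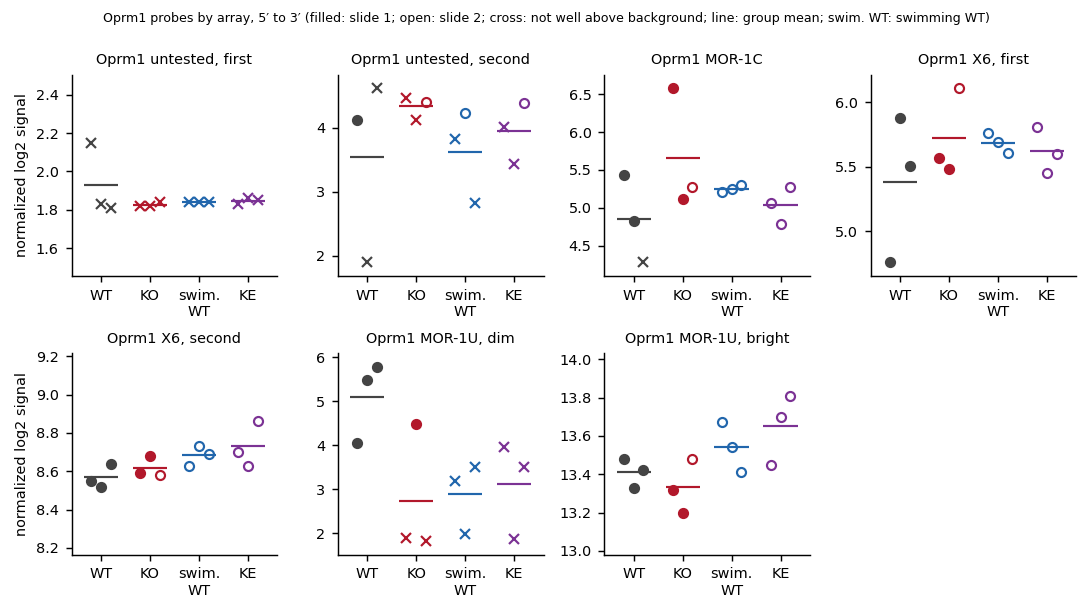
Normalized log2 signal (vertical axis, its own scale in each panel) of the 7 Oprm1 probes on each of the 12 arrays, by group, in the order of transcription. Filled points are arrays of slide 1, open points arrays of slide 2, crosses arrays on which the probe was not well above background, and lines group means. In the dim MOR-1U panel the 3 WT arrays lie between 4.04 and 5.78 and all swimming WT and KE arrays at or below 3.96, while the bright MOR-1U panel shows every array between 13.20 and 13.81.

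The bright MOR-1U probe gave a different picture. Its log2 signal was 13.48, 13.33 and 13.42 in WT, 13.32, 13.20 and 13.48 in KO, 13.67, 13.54 and 13.41 in swimming WT, and 13.45, 13.70 and 13.81 in KE mice. The groups overlapped in every comparison. The log2 fold change was -0.07 in KO versus WT, 0.13 in the swimming WT mice against WT, 0.25 in KE against WT and 0.32 in KE against KO (standard error 0.11 for each), with adjusted p-values from limma of 0.894, 0.454, 0.160 and 0.175.

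The probes with the CA repeat were set beside it. Over the 110 tested probes with this repeat, the bright MOR-1U probe included, the median log2 fold change was 0.13 in KO versus WT, 0.33 in the swimming WT mice against WT, 0.37 in KE against WT and 0.27 in KE against KO. Over all 35230 tested probes, the corresponding medians were -0.01, -0.04, -0.07 and -0.04. With the slide as a block, the medians of the CA repeat probes were 0.04, -0.03, 0.00 and -0.03, and the bright MOR-1U probe was at -0.15, -0.08, 0.03 and 0.18. The part of the repeat in the value of this probe was not tested.

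The other 3 tested Oprm1 probes lie 183.3 kb or more upstream of both MOR-1U probes, in the 5′ part of the 247.2 kb that the probes span. The MOR-1C probe (A_51_P100309, minus strand, chr10:3516154-3516213) reports a variant with another C-terminal tail of the receptor. Its log2 signal was 5.43, 4.83 and 4.28 in WT, 6.58, 5.11 and 5.27 in KO, 5.21, 5.25 and 5.30 in swimming WT, and 5.06, 4.79 and 5.28 in KE mice, and it was not well above background in WT replicate 3. KO replicate 1 was the highest array and WT replicate 3 the lowest, and all groups overlapped. The mean was 0.80 higher in KO than in WT mice (log2, standard error 0.38, adjusted p = 0.849 from limma), and 0.996 higher under the slide block. Without WT replicate 1 this difference was 1.10 and without KO replicate 2 it was 1.07, and in both cases the probe met the screening criterion of the study, a change of 2-fold or more with an unadjusted p of at most 0.05, with adjusted p-values of 0.997 and 0.572.

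Both remaining probes are assigned to the predicted variant X6. The first of them (A_55_P2523035, chr10:3494913-3494972) was at 4.76, 5.88 and 5.51 in WT, 5.57, 5.48 and 6.11 in KO, 5.76, 5.69 and 5.61 in swimming WT, and 5.81, 5.45 and 5.60 in KE mice. The second (A_52_P699664, chr10:3492541-3492600) was at 8.55, 8.52 and 8.64 in WT, 8.59, 8.68 and 8.58 in KO, 8.63, 8.73 and 8.69 in swimming WT, and 8.70, 8.63 and 8.86 in KE mice. WT replicate 1 was the lowest array for the first X6 probe, and the groups overlapped for both probes in every comparison. The largest difference from WT was 0.33 in KO mice for the first X6 probe (standard error 0.26, adjusted p = 0.849) and 0.16 in KE mice for the second (standard error 0.07, adjusted p = 0.151, both from limma). Under the slide block, these values were 0.14 and 0.22.

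In KO versus WT, 3 of the 4 tested Oprm1 probes other than the dim one had a higher mean in KO mice, and in swimming WT versus WT and KE versus WT all 4 had a higher mean in the exercised group, by 0.11 to 0.41 and by 0.16 to 0.25. With the slide as a block, 2 of the 4 were lower than WT in swimming WT mice and 1 of the 4 in KE mice. The direction of these small differences thus moved with the block. None of them had an adjusted p under 0.05. The plot of differences along the gene shows the dim MOR-1U probe as the only tested Oprm1 probe more than 1 away from WT on the log2 scale.

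**Figure D2:**
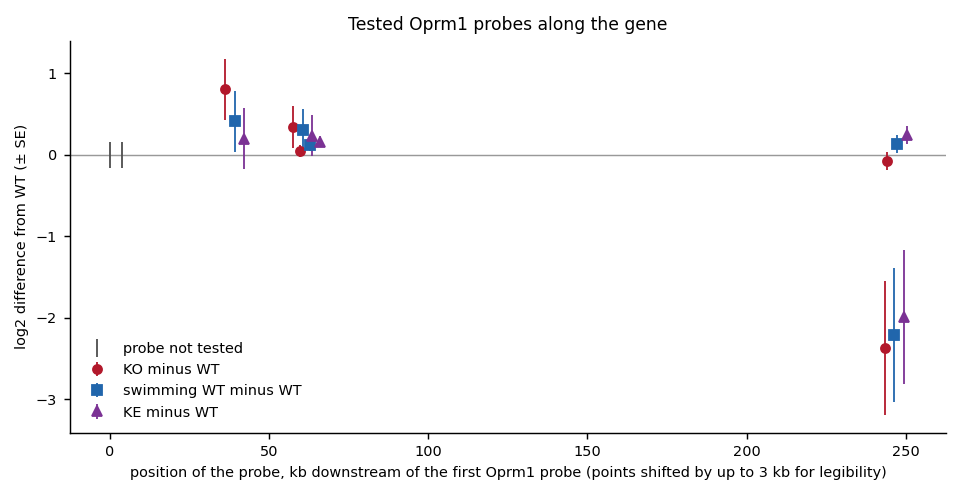
Log2 difference from WT (vertical axis, with the standard error) of the 5 tested Oprm1 probes against their distance in kb downstream of the first Oprm1 probe (horizontal axis), for KO, swimming WT and KE mice. The pair of MOR-1U probes at 246.3 and 247.2 kb separates into values of -2.37 to -2.00 for the dim probe and -0.07 to 0.25 for the bright one, and grey ticks mark the 2 probes that were not tested.

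The 2 untested Oprm1 probes lie farthest upstream. The first (A_55_P2087448, chr10:3555486-3555545) had a log2 signal of 1.81 to 2.15 and was well above background on none of the 12 arrays. The second (A_55_P2087458, chr10:3551689-3551748) ranged from 1.90 to 4.62 and was well above background on 4 arrays, 1 in each group. These probes bound no difference between the groups.

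The 3 tested probes with another gene symbol whose profile over the 12 arrays lay closest to that of the dim MOR-1U probe were probes of Abat, the enzyme that breaks down GABA, of Igf2os, an RNA antisense to Igf2, and of Pot1b, a protein of the telomere ends. Their root mean square differences from it, after centering each probe on its own mean, were 0.95, 0.96 and 0.96 on the log2 scale. The dim probe itself varied by 1.32 around its mean, so that even these profiles left much of its variation apart. In swimming WT mice, the Abat probe was well above background on all 3 arrays and the Igf2os probe on none.

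The means of the kappa receptor spanned at most 0.16 on the log2 scale on both of its probes, which lie 230 bases apart. The probe of Oprk1 variant 2 (A_51_P377528, plus strand, chr1:5592825-5592884) was at 9.39, 9.33 and 9.32 in WT, 9.36, 9.44 and 9.18 in KO, 9.20, 9.32 and 9.14 in swimming WT, and 9.22, 9.16 and 9.20 in KE mice. All KE arrays lay below all WT arrays, and KO replicate 3 lay among the swimming WT and KE arrays. The difference was -0.16 in KE versus WT (standard error 0.07, adjusted p = 0.180 from limma), whereas the slide block gave 0.06.

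The probe of Oprk1 variant 1 (A_55_P2592718, plus strand, chr1:5593115-5593174) was at 10.77, 10.69 and 10.73 in WT, 10.85, 10.85 and 10.79 in KO, 10.76, 10.89 and 10.70 in swimming WT, and 10.89, 10.71 and 10.69 in KE mice. All KO arrays lay above all WT arrays, by a mean of 0.10 on the log2 scale (standard error 0.07, adjusted p = 0.849 from limma), or 0.12 under the slide block. This was the only member whose groups did not overlap in KO versus WT, where 3.58% of all tested probes had all KO arrays above all WT arrays and 8.58% did not overlap in either direction. The order of the means was KO, swimming WT, KE and WT, and each neighbor in that order overlapped the next.

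The delta receptor Oprd1 has 1 probe (A_55_P2186170, minus strand, chr4:131666647-131666706), which was dim. It was at 4.59, 4.38 and 4.78 in WT, 4.04, 4.86 and 4.25 in KO, 4.40, 4.65 and 4.72 in swimming WT, and 4.40, 4.22 and 4.55 in KE mice, and it failed to stand well above background in WT replicate 2 and KO replicate 1. KO mice held both the lowest and the highest array, and all groups overlapped. The fitted differences lay between -0.20 and 0.01 on the log2 scale in the 5 comparisons of groups, with a standard error of 0.20, and between -0.20 and 0.21 under the slide block, so that a change smaller than this error could not be seen at this signal.

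The nociceptin receptor Oprl1 has 3 probes, and the 2 that lie farther downstream separated the arrays both by slide and by swimming. The downstream probe (A_55_P2066593, plus strand, chr2:181455616-181455675) is shown because it holds the letters AATAAA, the usual polyadenylation signal, given in capitals in the last 30 of its 60 bases, 5′ to 3′. These letters, searched on the printed strand, were in 9.77% of all probes.
Oprl1, downstream: ggagttctcatAATAAAcacttaccagtga
Its log2 signal was 14.14, 14.19 and 14.16 in WT, 14.21, 14.20 and 14.04 in KO, 13.99, 14.03 and 13.77 in swimming WT, and 13.99, 13.94 and 13.85 in KE mice. All swimming WT and KE arrays lay below all WT and all KO arrays. KO replicate 3 was the lowest KO array and lay just above the highest swimming WT array.

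The log2 fold change of the downstream Oprl1 probe was -0.23 in the swimming WT mice against WT, -0.24 in KE against WT and -0.23 in KE against KO, each with a standard error of 0.08, and the adjusted p-values from limma were 0.122, 0.0897 and 0.180. With the slide as a block these values were -0.07, -0.07 and -0.12. Without KO replicate 3 the adjusted p was 0.0338 in KE versus KO (log2 fold change -0.28) and 0.0440 in KE versus WT, where 24.3% and 23.2% of all tested probes then had one under 0.05.

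The middle Oprl1 probe (A_55_P2827201, chr2:181453719-181453778) was at 8.47, 8.47 and 8.52 in WT, 8.44, 8.47 and 8.39 in KO, 8.32, 8.37 and 8.23 in swimming WT, and 8.26, 8.39 and 8.25 in KE mice. Here too all swimming WT and KE arrays lay below all WT and all KO arrays, and KO replicate 3 was the lowest KO array. The differences were -0.18 in the swimming WT mice against WT, -0.19 in KE against WT and -0.14 in KE against KO (standard error 0.06 for each, adjusted p = 0.109, 0.0773 and 0.224 from limma). They were -0.12, -0.13 and -0.09 under the slide block. Without KO replicate 3 the adjusted p in KE versus WT was 0.0397.

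The upstream Oprl1 probe (A_52_P297290, chr2:181450549-181450608) overlapped in every comparison, and its differences from WT in the exercised groups changed sign with the slide block. It was at 6.18, 6.36 and 6.13 in WT, 6.14, 6.58 and 6.58 in KO, 6.42, 6.52 and 6.20 in swimming WT, and 6.29, 6.47 and 6.37 in KE mice. Its mean was 0.21 higher in KO, 0.16 higher in swimming WT and 0.16 higher in KE than in WT mice (standard error 0.13, adjusted p = 0.849, 0.447 and 0.433 from limma). Under the slide block it was 0.14 higher in KO, but 0.06 lower in swimming WT and 0.06 lower in KE than in WT mice, and in KE versus KO the difference was -0.05 without the block and -0.20 with it.

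Prodynorphin had the widest span of group means among the members that were well above background on all 12 arrays. Its single probe (A_52_P586928, minus strand, chr2:129512323-129512382) is shown by its last 30 of 60 bases, 5′ to 3′, as the only readout of this precursor.
Pdyn: tctgtgtagtttcctgcttctctggtataa
The log2 signal was 13.98, 13.72 and 13.67 in WT, 13.93, 13.71 and 13.54 in KO, 13.64, 13.43 and 13.32 in swimming WT, and 13.59, 13.45 and 13.30 in KE mice. All swimming WT and KE arrays lay below all WT arrays, and KO replicate 3 lay below every array of slide 1 and within the range of the swimming WT arrays. In the order WT, KO, swimming WT and KE, each group overlapped the next.

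The mean Pdyn signal was 13.79 ± 0.16 (SD, n = 3) in WT, 13.73 ± 0.19 in KO, 13.46 ± 0.16 in swimming WT and 13.45 ± 0.14 in KE mice. The log2 fold change was -0.33 in swimming WT versus WT and -0.35 in KE versus WT (standard error 0.13, adjusted p = 0.151 and 0.111 from limma), -0.28 in KE versus KO and -0.02 in KE versus swimming WT. With the slide as a block, the values were -0.05 in swimming WT and -0.07 in KE versus WT (standard error 0.21 for both) and -0.10 in KE versus KO. The difference between exercised and sedentary mice was thus within the standard error once the slide was in the fit.

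Genes that mark neurons known to make dynorphin, among them Avp, Hcrt and Kiss1, were set beside Pdyn as a list. None of the 14 tested probes of 8 such genes met the screening criterion in any comparison. The Pdyn probe did not meet it either, so this count cannot set the list apart from Pdyn. The median log2 fold change of the list was -0.10 in the swimming WT mice against WT, -0.08 in KE against WT and -0.05 in KE against KO. These values had the same sign as those of Pdyn and were smaller in size. Under the slide block, the medians of these 8 genes were -0.04, 0.10 and 0.06 in the same order. Their summed signal ran from 138368 to 159910 in WT, 128814 to 143770 in KO, 122646 to 169407 in swimming WT and 126691 to 152160 in KE mice, so the groups overlapped. Their part in the Pdyn value was not tested.

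Prepronociceptin did not separate any groups. The Pnoc probe (A_51_P450469, minus strand, chr14:66020505-66020564) was at 11.88, 12.03 and 12.04 in WT, 11.62, 12.10 and 11.76 in KO, 11.78, 11.98 and 12.07 in swimming WT, and 12.00, 11.96 and 12.05 in KE mice. KO mice held both the lowest and the highest array, and all groups overlapped. The largest difference was 0.17 in KE versus KO (log2, standard error 0.12, adjusted p = 0.403 from limma), and 0.24 under the slide block.

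**Figure D3:**
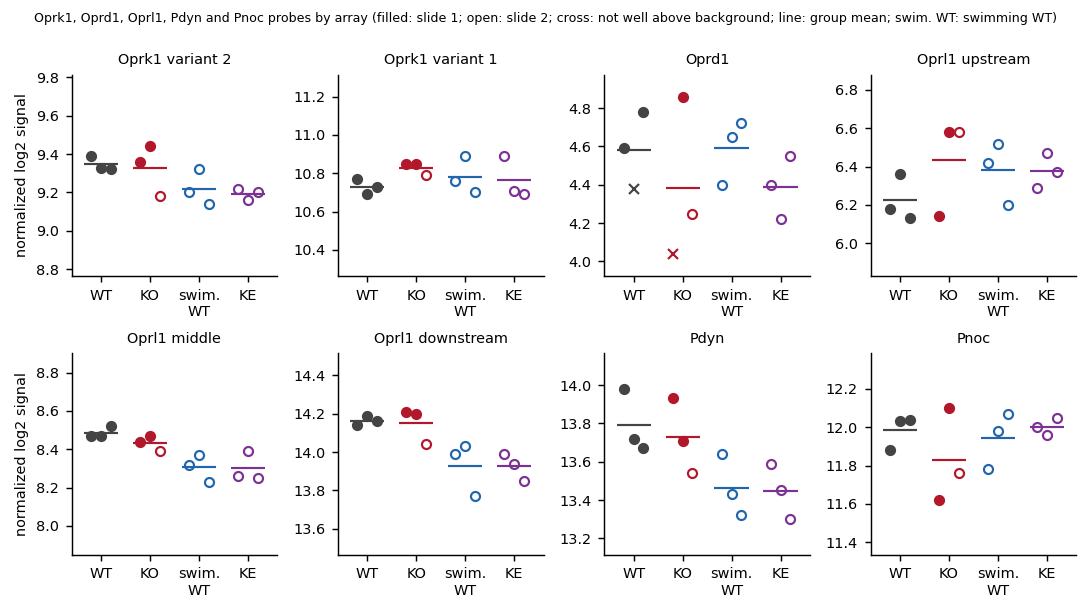
Normalized log2 signal (vertical axis, its own scale in each panel) of the 8 probes of Oprk1, Oprd1, Oprl1, Pdyn and Pnoc on each of the 12 arrays, by group. Filled points are arrays of slide 1, open points arrays of slide 2, crosses arrays on which the probe was not well above background, and lines group means. For the middle and downstream Oprl1 probes and for Pdyn, every open point lies below every filled point, the open KO point included.

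Across the 13 tested probes, 12 had group means that spanned less than 1 on the log2 scale (0.80 at most), and the dim MOR-1U probe, with 2.37, was the exception. Group means spanned 1 or more in 3.9% of all tested probes. In KO versus WT, 1 of 13 probes met the screening criterion, against 0.224% of all tested probes. In swimming WT versus WT it was 1 of 13 against 2.19%, and in KE versus WT 1 of 13 against 2.74%. In each case it was the dim MOR-1U probe, whose values had drawn attention to these genes, so nothing is read from these counts. In KE versus KO (1.21% of all tested probes), in KE versus swimming WT (0.253%) and in the swimming by genotype interaction (0.593%), 0 of 13 met it. At an unadjusted p under 0.05, limma gave 3, 0 and 0 of the 13 there, beside 21.1%, 6.66% and 7.75% of all tested probes, and the methods' t-test also gave 0 of 13 at the criterion in KE versus KO and KE versus swimming WT.

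No member had an adjusted p under 0.05 in any comparison with limma (0 of 13 in each), and without adjustment a p under 0.05 was found for 1 in KO versus WT, 4 in swimming WT versus WT and 6 in KE versus WT, the dim MOR-1U probe among them each time. Over all tested probes the shares were 5.48%, 26% and 30.4%. The smallest adjusted p of a member was 0.849 in KO versus WT, 0.109 in swimming WT versus WT and 0.175 in KE versus KO. It was 0.871 in KE versus swimming WT, 0.0773 in KE versus WT and 0.645 for the interaction, the last being that of the dim MOR-1U probe. Over all probes, an adjusted p under 0.05 was reached by 0.0199% in KE versus KO and by 0% in every other comparison. By the methods' t-test, an adjusted p under 0.05 was reached by 2 members, the Oprk1 variant 2 probe (0.0442) and the downstream Oprl1 probe (0.0455), in KE versus WT, as it was by 13.8% of all tested probes. The median log2 fold change of the 13 probes was 0.01 in swimming WT versus WT and 0.02 in KE versus WT, beside -0.04 and -0.07 over all tested probes.

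Groups that did not overlap were counted as well. In swimming WT versus WT, 4 of 13 probes had all swimming WT arrays below all WT arrays (22.2% of all tested probes), and in KE versus WT 5 of 13 had all KE arrays below all WT arrays (27.7%). In KE versus KO there were 2 of 13 (15.4%), both of Oprl1, and in KE versus swimming WT there were 0 of 13 (19.5% in either direction). Between the slides, 3 of 13 probes had every slide 2 array below every slide 1 array (11.5%), and 0 of 13 lay the other way (10.4%).

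**Figure D4:**
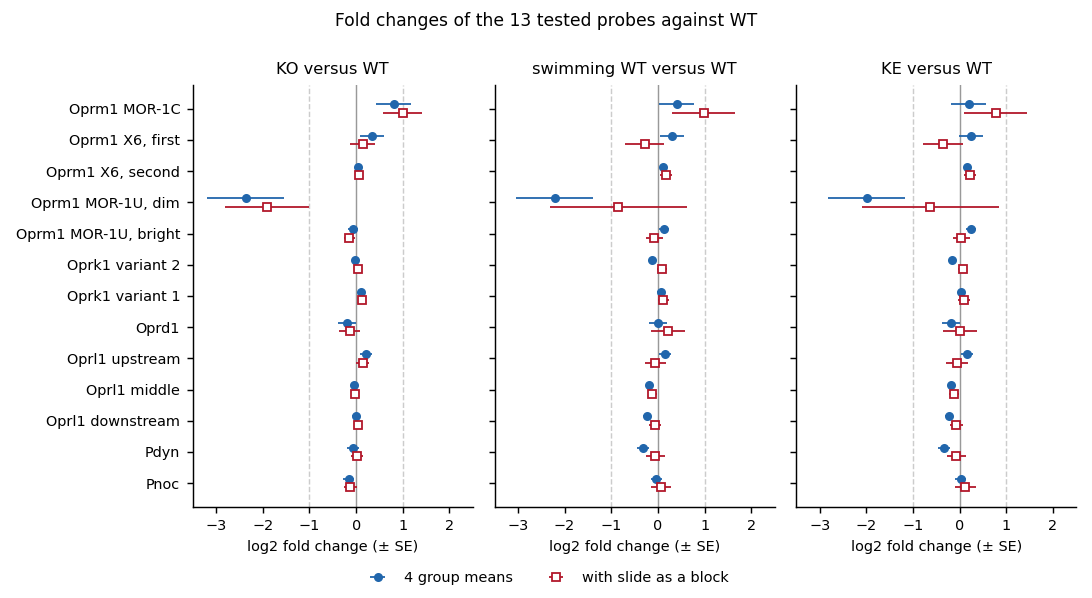
Log2 fold change (horizontal axis, with the standard error) of the 13 tested probes in KO, swimming WT and KE versus WT, from the fit of 4 group means (filled circles) and with the slide as a block (open squares); dashed lines mark a fold of 2. Pdyn moves from -0.33 to -0.05 in swimming WT versus WT when the slide is a block, and the dim MOR-1U probe from -2.21 to -0.85.

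The difference between the exercised groups was small for the kappa and nociceptin systems. In KE versus swimming WT, which lie on 1 slide, the 7 probes of Oprk1, Oprl1, Pdyn and Pnoc differed by -0.03 to 0.06 on the log2 scale. The same probes differed by -0.16 to 0.21 in KO versus WT, which spans both slides, and by -0.12 to 0.14 there with the slide as a block. The interaction of swimming and genotype lay between -0.21 and 0.21 for them, and between -0.14 and 0.18 with the block.

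The other genes of opioid signaling were taken from 5 lists with 61 genes in all, of which 59 genes had 128 tested probes. In limma, 0 of the 128 reached an adjusted p under 0.05 in any comparison. Over all tested probes, 0.0199% did in KE versus KO and 0% in every other comparison. The screening criterion was met by 0 in KE versus KO (1.21% of all tested probes), KE versus swimming WT (0.253%) and KE versus WT (2.74%). The same 1 of the 128 probes met it in KO versus WT (0.224%), swimming WT versus WT (2.19%) and the interaction (0.593%).

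That probe belonged to Cacna1b, the pore subunit of the N-type calcium channel that opioid receptors close (A_55_P2078040, minus strand, chr2:24473205-24473264). It was at 4.61, 6.10 and 4.53 in WT, 3.70, 4.21 and 3.33 in KO, 3.53, 4.12 and 3.78 in swimming WT, and 4.70, 4.53 and 4.08 in KE mice. No KO array was well above background. With each KO array raised, if needed, to the faintest such signal on it, the WT mean was 1.78-fold higher than the KO mean. Without this step the adjusted p was 0.849 from limma. Against WT, the KO mice differed by -1.34, or by -1.13 with the slide as a block, and met the criterion both ways. It was 1.27 lower on the log2 scale in swimming WT than in WT mice and 0.64 lower with the slide as a block, where it no longer met the criterion. The interaction was 1.96 (standard error 0.56, adjusted p = 0.530 from limma), and 1.75 with the block, past the criterion in both. The other 3 tested Cacna1b probes did not meet the criterion in any comparison.

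Penk and Pomc, the precursors of the enkephalins and of beta-endorphin, did not meet the criterion in any comparison. The brighter Penk probe (A_51_P102987, minus strand, chr4:4060735-4060794) was at 14.76, 14.80 and 15.09 in WT, 14.69, 14.88 and 14.68 in KO, 14.85, 14.95 and 15.45 in swimming WT, and 14.76, 14.75 and 14.82 in KE mice. Swimming WT replicate 3 was the highest array, in the group that also held the highest summed striatal markers, of which Penk is 1. That sum adds unlogged signals, so this bright Penk probe weighs heavily in it and the sum is no separate readout. The dimmer Penk probe (A_55_P2925001, minus strand, chr4:4065808-4065867) was at 9.97, 9.73 and 10.08 in WT, 9.83, 9.88 and 9.67 in KO, 9.64, 9.85 and 10.08 in swimming WT, and 9.54, 9.68 and 9.68 in KE mice. All KE arrays of this probe lay below all WT arrays, as for 27.7% of all tested probes. The mean difference was -0.29 (log2, standard error 0.12, adjusted p = 0.142 from limma), or -0.10 with the slide as a block. The Pomc probe (A_52_P671543, plus strand, chr12:3960413-3960472) was at 13.89, 13.52 and 13.20 in WT, 13.84, 13.42 and 13.51 in KO, 13.54, 13.28 and 12.64 in swimming WT, and 13.35, 13.28 and 12.97 in KE mice. All KE arrays lay below all KO arrays, as for 15.4% of all tested probes, and the groups overlapped in the other comparisons. The mean of the KE arrays was 0.39 below that of the KO arrays (adjusted p = 0.362 from limma; 0.31 below under the slide block). The mean was 0.39 lower in swimming WT than in WT mice on the log2 scale (standard error 0.24, adjusted p = 0.325 from limma), and 0.27 lower under the slide block.

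Among the remaining lists, the median log2 fold change in swimming WT versus WT was -0.07 for the enzymes that process the precursors, among them Pcsk1, Pcsk2 and Cpe (16 probes), and -0.05 for the enzymes that degrade the peptides, among them Mme and Npepps (21 probes). It was 0.01 for the inhibitory G proteins and their regulators (46 probes) and -0.05 for the channels and other effectors (38 probes). In KE versus WT the 4 medians were -0.09, -0.17, -0.01 and -0.07, beside -0.07 over all tested probes, and with the slide as a block they were 0.02, 0.02, 0.00 and -0.02.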

How the data were processed

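Each of 12 mice gave hypothalamus RNA for 1 single-color Agilent array. Per array, the authors deposited scanner files with spot intensity after background subtraction in Agilent Feature Extraction 10.7.1.1 (version from the submitters' processing notes) with a flag for spots well above background, and 1 table with log2 values from quantile normalization of all arrays in GeneSpring. The deposited log2 values were used as the main values and the flags from the scanner output as detection. The raw intensity beside them lay within 0.01 (log2) of the scanner output for 56514 to 56589 of 56605 probes per array. The share of spots well above background was 61.62% to 67.91%, and 0 spots were saturated. The 4 tables of the authors' own comparisons hold fold changes, p-values and 72 columns of values per sample, and were not used.

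Groups, and replicate numbers, came from the sample labels; each array is labelled as a separate mouse. Probes that some group had well above background in each of its 3 mice were tested (35230 of 56605) with limma 3.58.1 in R 4.3.3, fitting 4 group means to all 12 arrays, for 5 comparisons of groups and the interaction. The screening criterion was a 2-fold or larger change whose unadjusted p does not exceed 0.05, and Benjamini-Hochberg adjustment ran over all tested probes. Members and gene lists were chosen with earlier results of these data known. Every probe of the members was named, with Penk, Pomc and each pathway probe past the criterion. Probe positions and sequences are those of the array annotation (mm9). The fit was also run on simulated data. Success there was required only of the fit without a block, in KO versus WT and KE versus swimming WT. Alternatives were the scanner signal normalized anew, scaling by the 75th percentile, normexp (offset 50), other detection filters, the t-test of the methods, fits to only the groups compared, blocks for slide or replicate number, each slide alone, averaging per gene, and leaving out each array. Tables and plots came from Python 3.11.15 with matplotlib 3.10.9, pandas 2.3.3 and numpy 2.4.6.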

Additional observations from a re-analysis of the deposited data

How the results depend on the processing

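The number of opioid probes past the screening criterion was 1 in KO versus WT, swimming WT versus WT and KE versus WT (0.224%, 2.19% and 2.74% of all tested probes). It was the dim MOR-1U probe by which the genes were chosen, so these counts describe it and support nothing. Under normexp, under the slide block and for probes averaged per gene it was 0 in all 3. With normexp, 2 of all 35230 tested probes met the criterion in KO versus WT, beside 79 in the main analysis. Detection asked on all 12 arrays also gave 0. That 0 was fixed in advance, since this filter removes the dim probe, which was well above background on 4 arrays. The methods' t-test gave 0 in KO versus WT and KE versus WT, and the fit within slide 1 gave 0 in KO versus WT. In KO versus WT the slide block, the fit within slide 1 and leaving out KO replicate 3 give the same difference. They are not separate checks. With the replicate block it was 0 in KE versus WT; this changed no other such count, and same-numbered arrays deviated together no more than by r = -0.19 to 0.24, so the numbers were not taken as pairs. Leaving out 1 array gave 0 to 2 in KO versus WT, 0 to 1 in swimming WT versus WT and in KE versus WT, and 0 to 2 for the interaction, which was 0 in the main analysis and 1 with the scanner signal normalized anew or scaled by the 75th percentile. In KE versus KO and KE versus swimming WT every alternative run gave 0.

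Of 1633 log2 fold changes of single probes under the alternatives, 1594 moved by less than the spread between replicates. The other 39 moved by more, 23 of them under the slide block and 11 under normexp. Many of the 1594 could not move. Other detection filters, the t-test, fits to only the groups compared and the replicate block keep the same group means. So does leaving out an array of a group outside the comparison. The 1594 is therefore no measure of stability. A change of sign was counted only for values that had met the criterion, and 0 were found. In the main analysis only the dim MOR-1U probe had met it, in KO, swimming WT and KE versus WT. The values of all other probes could not enter that count. Some of them did change sign under the slide block, as given above for the Oprk1 variant 2 and upstream Oprl1 probes. An adjusted p under 0.05 was reached by 3 members in KE versus KO without KO replicate 3 (the Oprk1 variant 2, downstream Oprl1 and bright MOR-1U probes), as by 24.3% of all tested probes. In KE versus WT it was reached by 2 members without KO replicate 3 (23.2% of all), by 2 with the methods' t-test (13.8%) and by 1 in the fit on the groups compared (17.6%). Over all probes the count past the criterion ran from 67 to 207 in KO versus WT and from 124 to 1187 in KE versus KO when 1 array was left out, beside 79 and 426, and with all other alternatives from 2 to 487 and from 57 to 1015. In the same way it ran from 259 to 1524 in swimming WT versus WT (770), from 5 to 808 in KE versus swimming WT (89), from 281 to 1798 in KE versus WT (965) and from 12 to 955 for the interaction (209). The t-test and the fit on the groups compared were not run for the interaction, and no slide held both groups of swimming WT versus WT or KE versus WT. Signal near background limits the dim MOR-1U, MOR-1C and Oprd1 probes.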
